A study of Mus musculus with 35 samples.

Results

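Interferon-stimulated genes are transcripts that a cell raises when it senses interferon. Here 33 of them, chosen by gene symbol, were followed in primary mouse embryonic fibroblasts (MEFs) exposed to methyl methanesulfonate (MMS), an alkylating agent that methylates DNA and other molecules of the cell. In the array annotation 31 of the 33 had a probe set of their own symbol, and 29 passed the filter on low signals and were tested, among 14135 genes tested of 18194 with a probe set. The only probe set listed for Isg15, the ubiquitin-like modifier, was shared with Gm9706, and none was listed for Ifi44. Mx1 and Oasl2 stayed below the limit of the filter, a group mean of 4.40 on the log2 scale, in every group, so that they were measured but not tested.

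Per the labels, all arrays came from C57BL6/J fibroblasts of embryos at day 15.5, grown for 2 passages in medium with 10% serum at 5% oxygen. The study's methods give an earlier embryo age and more passages, and the difference could not be settled. Control cells were sampled at 0, 1, 8, 24 and 72 h, and cells given 40 µg/mL MMS at 1, 8, 24 and 72 h, with both arms receiving fresh medium at the start. Each group held 4 arrays, except MMS at 72 h with 3 (its replicate 4 was not analysed here). The labels do not say whether the replicates of a group were separate cultures or embryos, so p-values measure the spread between these arrays, which may be technical. Values are log2 signals of the deposited table, and calls were made where limma gave an adjusted p under 0.05 (moderated linear model, Benjamini-Hochberg over all 14135 genes).

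Interferons are secreted ligands that bind receptor pairs on the cell surface. Type I interferon activates the kinases JAK1 and TYK2, which phosphorylate STAT proteins. A complex of STAT proteins with IRF9 then binds the interferon-stimulated response element (ISRE) of target promoters, while interferon gamma acts through a second element, the gamma-activated site (GAS). The products of the target genes sense foreign RNA, block translation, degrade RNA, present antigen and switch the signal off again. Many of them belong to families of close relatives, whose probe sets may share signal, which was not tested.

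Some arrays stood apart before any comparison. The mean of 18 intestine markers was 11.18 on control 0 h replicate 3, 7.34 on MMS 1 h replicate 3, 9.28 on MMS 24 h replicate 3 and 6.10 on MMS 72 h replicate 3, against 4.10 to 5.59 on the other 31 arrays. These 4 arrays are named below as those with intestinal transcripts. They were set apart by these same values, after seeing them. Some of the arrays kept also read higher than the rest: control 1 h replicates 3 and 4 (5.59 and 5.13) and control 24 h replicate 4 (5.29). Fibroblast markers (14 genes) lay between 10.29 and 12.02 on every array, and all 14 were above the filter in every group. The mean of 20 macrophage markers was 7.61 to 7.76 in control and 7.06 to 7.24 in MMS-treated cells at 8 h, with 18 of the 20 above the filter (Aif1 and Itgam were not), and 4.35 to 5.63 on all arrays of other times. Markers of lymphocytes (9 genes, 3.82 to 5.13) and of endothelium (7 genes, 4.19 to 4.73) were low throughout.

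The array with the most intestinal transcripts was also the one with the highest interferon-stimulated genes. The mean of the 29 genes was 7.41 on control 0 h replicate 3 and 6.04, 6.04 and 6.08 on the other control 0 h arrays. On that array 15 of the 29 lay more than 1 log2 unit above the highest other control 0 h array, led by Igtp at 9.75 against 5.79 to 6.22. Oasl2, not tested, was 7.37 there and 2.96 to 3.39 on the other 3. The same array had the highest macrophage mean outside 8 h (5.63 against 4.44 to 4.50) and the highest lymphocyte mean (5.13 against 3.96 to 4.08). On MMS 24 h replicate 3, 2 genes were more than 1 log2 unit above the highest other array of the group, led by Oasl1 at 6.66 against 4.22 to 4.46. On MMS 1 h replicate 3 the mean of the 29 genes was 6.10 against 6.03 on each other array of the group. On MMS 72 h replicate 3 it was 6.70, below the 6.79 and 6.75 of the other arrays. The part of these other transcripts in the results was not tested. Because all groups share 1 estimate of the spread, the control 0 h array also enters the errors of comparisons it is not part of (the SE of Igtp was 0.45 with all arrays and 0.14 to 0.15 without the 4 at 8 and 24 h), so counts of the 29 genes are given with all arrays and again without the 4 arrays with intestinal transcripts (13959 genes tested, the same 29 members).

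**Figure D1:**
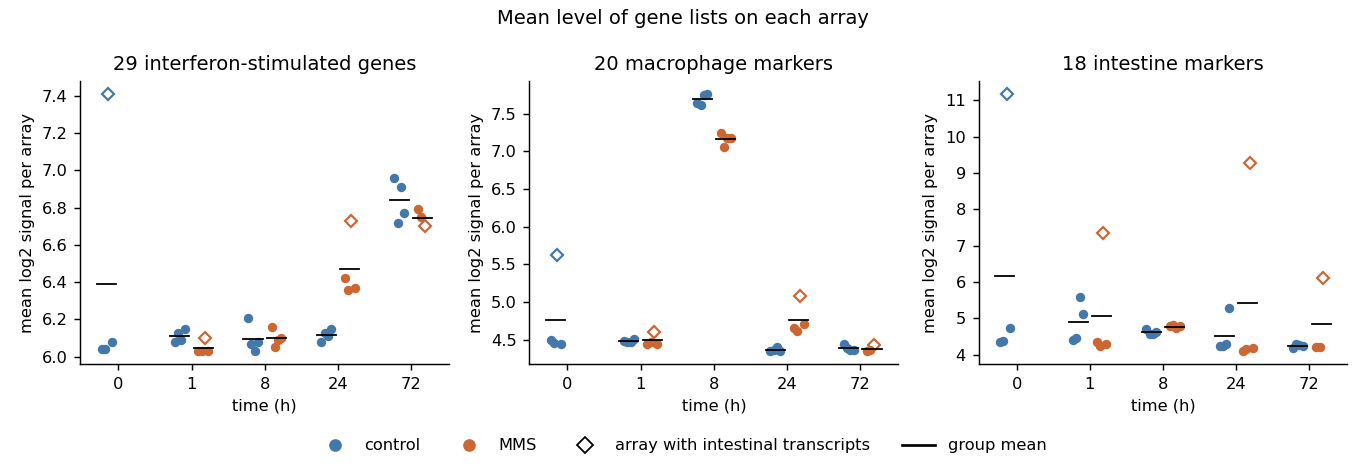
Mean log2 signal per array of the 29 interferon-stimulated genes tested, of 20 macrophage markers and of 18 intestine markers, against time in h (categories, not to scale). Points are arrays, diamonds the 4 arrays with intestinal transcripts and lines group means; the 29 genes averaged 6.36 to 6.73 on the MMS 24 h arrays against 6.08 to 6.15 in control cells, and 6.72 to 6.96 in control cells at 72 h.

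The sequences below are the stretches of 6 members' promoters that hold the elements named above, shown because these genes share an element and yet moved in different ways at 24 h of MMS. Promoters ran from 250 bases before to 50 after the annotated start (RefSeq, GRCm38.p6), and 28 of the 33 members had at least 1 (32 promoters in all). The ISRE core was searched as a pair of GAAA motifs with any 2 bases between them and the GAS as TTCNNNGAA, on both strands. Capitals mark all matches, including overlapping ones, so that a pair of TTTC is a core read on the other strand. Positions count from the start, with the base before it as -1, and each stretch reaches a short way beyond its first and last match.
Ifit1: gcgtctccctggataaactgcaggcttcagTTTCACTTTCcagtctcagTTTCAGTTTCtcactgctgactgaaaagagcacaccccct
Ifit3: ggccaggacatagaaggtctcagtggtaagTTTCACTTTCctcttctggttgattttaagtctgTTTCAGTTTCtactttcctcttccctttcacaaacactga
Gbp3: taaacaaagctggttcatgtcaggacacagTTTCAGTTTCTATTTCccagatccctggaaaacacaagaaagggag
Igtp: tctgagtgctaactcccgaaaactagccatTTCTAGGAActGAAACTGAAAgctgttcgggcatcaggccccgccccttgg
Bst2: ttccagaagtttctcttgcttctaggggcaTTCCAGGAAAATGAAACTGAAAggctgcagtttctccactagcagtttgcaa
Irgm1: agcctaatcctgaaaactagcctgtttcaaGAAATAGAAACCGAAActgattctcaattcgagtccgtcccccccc

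The Ifit1 stretch is chr19:34640755-34640843 on the plus strand, with cores starting at -104 and -85, and the Ifit3 stretch is chr19:34583343-34583446 on the plus strand, with cores at -156 and -122. Gbp3 (chr3:142559969-142560044, plus strand) has overlapping cores at -45 and -39, and Irgm1 (chr11:48871405-48871480, minus strand) at -30 and -24. Igtp (chr11:58199481-58199561, plus strand) has a GAS at -45 and a core at -34. Bst2 (chr8:71537557-71537638, minus strand) has a GAS at -136 that runs into cores at -130 and -124. Over all members with a promoter, 15 of 28 held the core and 7 held the GAS in at least 1 promoter, and 10 held neither. Among 32851 promoters of the same length, counted singly, 3.44% held the core and 8.3% the GAS. The units differ, since some members had several promoters. Of the 8 genes with a promoter that rose at 24 h of MMS, 5 held the core, as did 8 of the 16 with no call and Irgm1, which fell. A match is a description of these letters, and binding was not measured.

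In MEFs the interferon-stimulated genes had no common response to MMS at 1 h and were called in few cases at 72 h. At 8 h they moved in both directions, each in a smaller share (6.9% higher, 10.3% lower) than all genes. At 24 h 9 were called higher, which with all arrays was 31% against 25% of all genes. At 1 h 0 of 29 were called higher or lower (0.361% and 0.0283% of all genes tested), with or without the 4 arrays (then 0.337% and 0.0287%), and 2 had an unadjusted p under 0.05. At 8 h 2 rose and 3 fell (28.7% and 25% of all genes), and 5 rose and 5 fell without the 4 arrays (31.2% and 26.8%). At 24 h 9 rose and 1 fell (25% and 19.4%), and 12 rose and 1 fell without the 4 arrays (26.8% and 19.7%). At 72 h 1 rose and 3 fell (10.1% and 10.4%), and 3 rose and 4 fell without them (10.2% and 8.93%). The median log2 difference over the 29 was -0.06, 0.05, 0.26 and -0.13 at 1, 8, 24 and 72 h, and -0.11, 0.05, 0.13 and -0.08 without the 4 arrays. The median over all genes tested was -0.00306, 0.0564, 0.0126 and -0.00925.

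The genes that rose at 24 h had different roles, and 4 of them rose at least 2-fold (2.25% of all genes): Usp18, Tap1, Ifi35 and Igtp. Without the 4 arrays with intestinal transcripts 3 did (2.44%), Igtp falling just short. Usp18 is the protease that removes ISG15 from proteins and damps signalling at the type I receptor. Its log2 signal was 4.76, 4.84, 4.42 and 4.58 in control and 6.42, 6.05, 6.24 and 6.00 in MMS-treated cells at 24 h. The groups did not overlap, and the difference was 1.53 ± 0.28 (SE; 2.89-fold, adjusted p = 4.2e-05), or 1.51 ± 0.18 without the 4 arrays. Usp18 differed by -0.05 at 8 h (adjusted p = 0.91) and by 0.19 at 72 h (adjusted p = 0.77).

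Tap1, a subunit of the peptide transporter that loads MHC class I, read 6.72, 6.79, 6.81 and 6.62 in control and 8.35, 8.34, 8.03 and 8.12 in MMS-treated cells at 24 h. It rose by 1.47 ± 0.18 (2.78-fold, adjusted p = 3.3e-08), after a smaller rise of 0.52 ± 0.18 at 8 h (adjusted p = 0.014). At 72 h the difference was 0.40 (adjusted p = 0.15), and 0.54 ± 0.10 without the 4 arrays (adjusted p = 0.00025). Tap1 was the only member called higher with all arrays at both 8 and 24 h. Its other 3 probe sets were low (means 3.01 to 4.13) and differed by -0.04 to 0.06 at 24 h.

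Ifi35, a leucine zipper protein of the interferon response, read 9.05, 9.39, 9.35 and 9.32 in control cells at 24 h. In MMS-treated cells it read 10.51, 10.46, 10.92 and 10.59, the highest on the array with intestinal transcripts. The difference was 1.34 ± 0.21 (2.53-fold, adjusted p = 4.7e-06) and 1.24 ± 0.10 without the 4 arrays, and its other probe sets differed by 1.08 and 0.92. The GAS found in its promoter starts at 8, past the annotated start, and no core was found there.

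Xaf1, which counters the apoptosis inhibitor XIAP, read 5.72, 5.85, 5.78 and 5.76 in control and 6.64, 6.93, 7.00 and 6.54 in MMS-treated cells at 24 h. The difference was 1.00 ± 0.13 (adjusted p = 2.2e-07) and 0.92 ± 0.11 without the 4 arrays. Its second probe set was low (mean 3.34) and differed by 0.05. Neither element was found in the promoters of Tap1 and Xaf1, and Usp18 had no promoter in the table used.

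Among the GTPases known as targets of interferon gamma, 2 rose at 24 h, 1 fell and 1 was not called. Igtp, an immunity-related GTPase, read 6.27, 6.26, 6.56 and 6.62 in control and 7.47, 7.26, 8.03 and 7.51 in MMS-treated cells at 24 h, a rise of 1.14 ± 0.45 (adjusted p = 0.04) that was 0.99 ± 0.15 without the 4 arrays (adjusted p = 2.1e-06). With all other arrays kept, the call of Igtp was lost in 7 of the 8 fits that left out 1 array of the comparison (adjusted p = 0.044 to 0.11). Gbp3 read 4.13, 4.05, 4.08 and 4.28 against 5.12, 4.44, 4.49 and 4.97, a rise of 0.62 ± 0.15 (adjusted p = 0.00092). Its controls lay just under the filter and its MMS values spread widely, yet the groups did not overlap. Gbp2 differed by -0.12 (adjusted p = 0.47).

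Irgm1, an immunity-related GTPase of vesicle membranes, was the 1 member that fell at 24 h. It read 8.99, 9.03, 9.01 and 8.99 in control and 8.44, 8.48, 8.73 and 8.67 in MMS-treated cells, a difference of -0.43 ± 0.084 (adjusted p = 8.8e-05). At 72 h the order was the other way, with 9.22, 8.99, 8.95 and 9.03 in control and 9.62, 9.58 and 9.43 in MMS-treated cells, a rise of 0.49 ± 0.090 (adjusted p = 0.00011). No Irgm1 value of MMS overlapped the control at either time, and the effect at 72 h minus that at 24 h was 0.92 ± 0.12 (adjusted p = 7e-07).

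Smaller differences were called at 24 h for Eif2ak2, Bst2 and Ddx58. Eif2ak2, the kinase PKR that halts translation on double-stranded RNA, read 7.04, 7.41, 7.11 and 7.28 in control and 7.71, 7.74, 7.60 and 7.60 in MMS-treated cells. It differed by 0.45 ± 0.14 (adjusted p = 0.01), and its other probe sets by 0.92 and 0.77. Bst2, or tetherin, which holds budding virus at the membrane, read 6.75, 6.86, 6.62 and 6.97 against 7.30, 7.42, 6.97 and 7.26, with groups that touched. Its difference of 0.44 ± 0.18 (adjusted p = 0.048) was close to the threshold: the call was lost with the replicate number as a block (adjusted p = 0.056) and in 6 of the 8 fits that left out 1 array (adjusted p = 0.026 to 0.13). Ddx58, the RNA sensor RIG-I, read 8.13, 8.05, 8.12 and 8.09 against 8.46, 8.33, 8.61 and 8.38, without overlap. Ddx58 differed by 0.34 ± 0.081 (adjusted p = 0.0008), while its dimmer probe sets differed by 0.18 and -0.27, and the mean over its probe sets (0.08) was not called. Without the 4 arrays Irf7 (0.44 ± 0.13, adjusted p = 0.0081), Trim25 (0.36 ± 0.10, adjusted p = 0.0027) and Dtx3l (0.36 ± 0.13, adjusted p = 0.023) were called higher too. Irf7 is a transcription factor that raises interferon genes, Trim25 a ubiquitin ligase that activates RIG-I, and Dtx3l a ubiquitin ligase that works with Parp9.

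Many members, among them the IFIT genes, Rsad2, Oas1a and Cxcl10, were not called at 24 h. Ifit1, which binds foreign RNA caps, differed by -0.17 ± 0.38 (adjusted p = 0.76) and by -0.39 ± 0.21 without the 4 arrays (adjusted p = 0.13). Ifit2 and Ifit3, its relatives, differed by -0.12 (adjusted p = 0.2) and -0.32 (adjusted p = 0.082). Rsad2, or viperin, differed by 0.05 (adjusted p = 0.89), Oas1a, a sensor that activates RNase L, by 0.20 (adjusted p = 0.6), and the chemokine Cxcl10 by -0.29 (adjusted p = 0.067). Oasl1 differed by 0.47 with all arrays and by -0.12 without the 4: 1 MMS array, with intestinal transcripts, read 6.66 and the other 3 read 4.22 to 4.46. Stat2 and Irf9, parts of the complex that binds the ISRE, differed by 0.05 and 0.13 (adjusted p = 0.86 and 0.47).

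**Figure D2:**
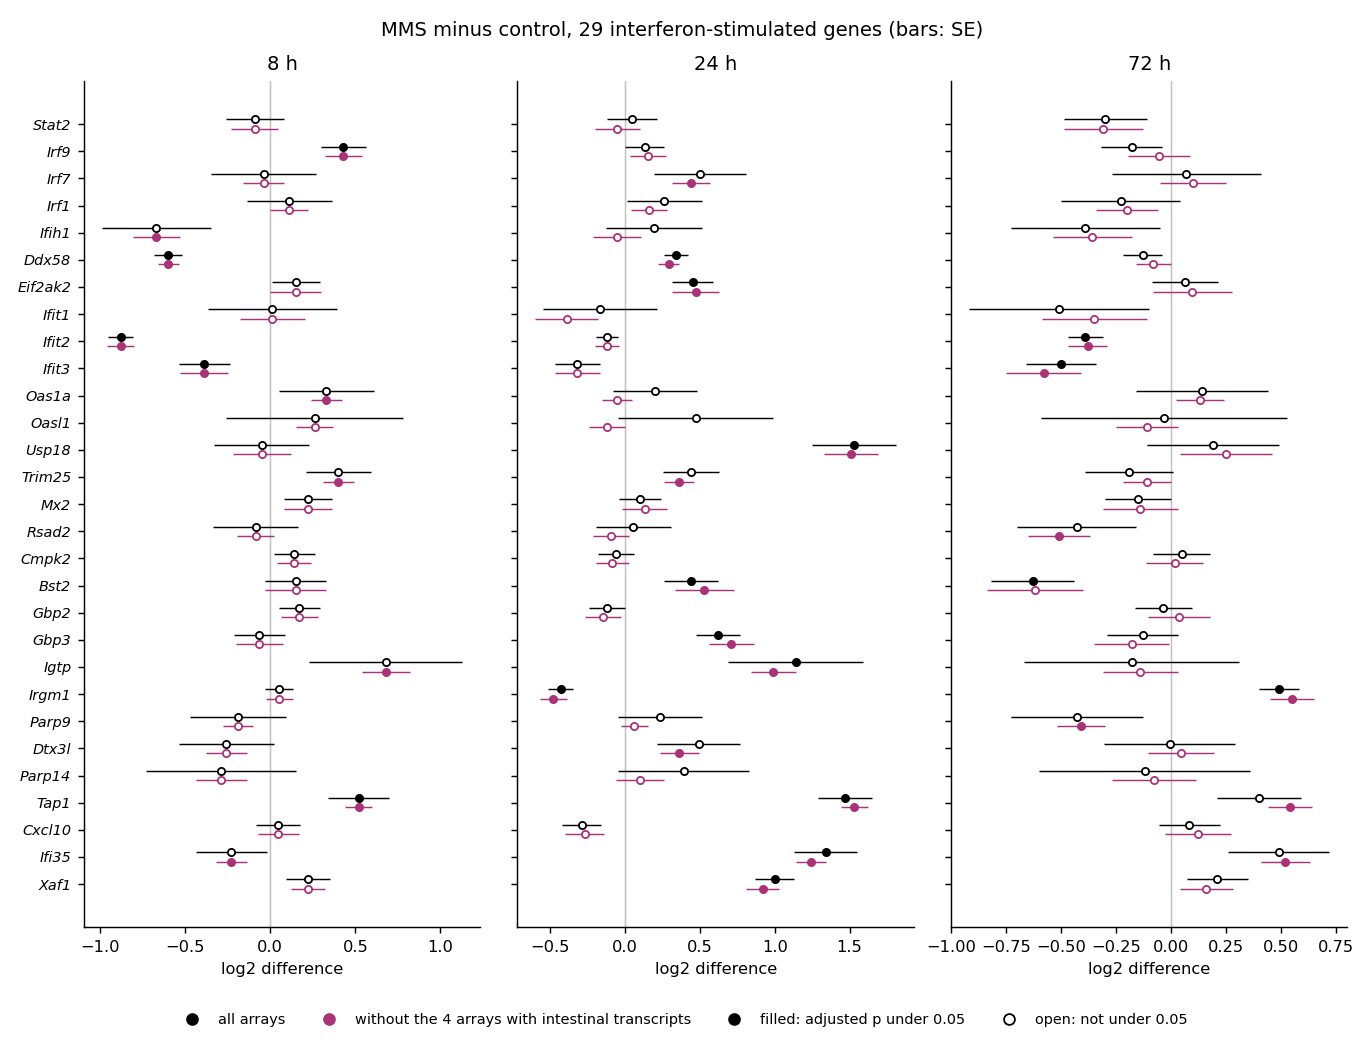
Log2 difference between MMS and control at 8, 24 and 72 h for the 29 genes, in the order of their roles, with all arrays (black) and without the 4 arrays with intestinal transcripts (purple). Bars are standard errors and filled points have an adjusted p under 0.05; Usp18, Tap1, Ifi35, Igtp and Xaf1 lie farthest to the right at 24 h and Ifit2 farthest to the left at 8 h.

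At 8 h the clearest changes were falls. Ifit2 read 7.33, 7.38, 7.40 and 7.43 in control and 6.50, 6.66, 6.42 and 6.46 in MMS-treated cells. The groups were far apart, and Ifit2 fell by 0.88 on the log2 scale (SE 0.074, adjusted p = 2e-11), a level 1.83-fold lower. Ddx58 read 7.86, 7.85, 7.91 and 7.96 against 7.41, 7.09, 7.27 and 7.42, a difference of -0.60 ± 0.081 (adjusted p = 2.7e-07) that its dimmer probe sets (0.25 and 0.06) did not show. Ifit3 differed by -0.39 ± 0.15 (adjusted p = 0.028), with 1 control array at 6.24 above the others at 5.57 to 5.63. Ifih1, the RNA sensor MDA5, differed by -0.67 ± 0.32 (adjusted p = 0.076) with all arrays and by -0.67 ± 0.14 without the 4 (adjusted p = 0.00024), although none of the 4 is an 8 h array. Its values were 6.07, 6.28, 5.93 and 6.37 in control and 5.38, 5.61, 5.28 and 5.70 in MMS-treated cells.

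Irf9 rose at 8 h by 0.43 ± 0.13 (adjusted p = 0.007), from 6.05, 6.07, 6.25 and 6.57 to 6.97, 6.49, 6.57 and 6.62, with overlap between the groups. Igtp read 7.08, 6.54, 6.64 and 6.77 in control and 7.59, 7.31, 7.38 and 7.49 in MMS-treated cells, a difference of 0.68 that was called only without the 4 arrays (SE 0.45 and adjusted p = 0.21 with all arrays, SE 0.14 and adjusted p = 8.6e-05 without). Trim25 (0.40, adjusted p = 0.00032) and Oas1a (0.33, adjusted p = 0.0027) were likewise called higher without the 4 arrays, and Ifi35 (-0.23, adjusted p = 0.03) lower. All 8 h arrays held macrophage transcripts, at a lower level in MMS-treated cells, and the part of these cells in the 8 h differences was not tested. In these bulk samples a smaller number of cells of a type cannot be told apart from less RNA per cell.

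At 72 h of MMS Ifit2 and Ifit3 were below the control. Ifit2 read 7.44, 7.26, 7.29 and 7.32 in control and 7.01, 6.89 and 6.91 in MMS-treated cells, a difference of -0.39 ± 0.080 (adjusted p = 0.00044). Ifit3 read 7.80, 7.01, 7.35 and 7.61 against 6.89, 6.84 and 7.10, a difference of -0.50 ± 0.16 (adjusted p = 0.025). Both had values at 72 h of MMS near or above those of control cells at 24 h (6.76 to 7.01 for Ifit2, 5.73 to 5.93 for Ifit3). Bst2 differed by -0.63 ± 0.19 (adjusted p = 0.018), which was no longer called without the 4 arrays (-0.62 ± 0.22, adjusted p = 0.052). Without the 4 arrays Rsad2 (-0.51, adjusted p = 0.0068) and Parp9 (-0.41, adjusted p = 0.0051) were called lower, and Ifi35 (0.52, adjusted p = 0.001) higher.

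The difference between MMS and control, here called the effect, changed with time for several members. All 8 h arrays held macrophage transcripts, at a lower level in MMS-treated cells. Their part in the comparisons with 8 h was not tested. Between 1 and 8 h the effect on 3 of 29 differed (41.3% of all genes), between 8 and 24 h that on 8 (45.6%), and between 24 and 72 h that on 8 (29%). Without the 4 arrays the counts were 9 (44.2%), 12 (48.6%) and 11 (31%), and with either set of arrays the share of the 29 between 1 and 8 h and between 8 and 24 h was below that of all genes. From 8 to 24 h the effect rose for Usp18 (1.58 ± 0.40), Ifi35 (1.57 ± 0.30), Tap1 (0.96 ± 0.25), Ddx58 (0.94 ± 0.12), Xaf1, Ifit2 and Gbp3, and fell for Irgm1. From 24 to 72 h it fell for Usp18 (-1.34 ± 0.42), Tap1 (-1.07 ± 0.26), Bst2 (-1.07 ± 0.26), Ifi35, Xaf1, Gbp3 and Ddx58, and rose for Irgm1. Neighbouring comparisons share the MMS and control arrays of 1 time, so a single off reading enters both.

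The comparison with the most calls among the 29 was between control cells at 0 and 72 h. Between 0 and 72 h without MMS 14 of 29 rose and 1 fell (21.8% and 16.3% of all genes), with a median of 0.50, and 5 of the 14 rose at least 2-fold (1.83% of all genes). Without the 4 arrays 23 rose and 0 fell (22.4% and 17.9%), with a median of 0.77, and 12 rose at least 2-fold (2.06%). Of the 15 genes without a call with all arrays or called lower, Cmpk2 lost its call (-0.40, adjusted p = 0.0088, then -0.25, adjusted p = 0.072), and Igtp, Parp9, Ifih1, Ifi35, Trim25, Dtx3l, Parp14, Irf7 and Irf1 gained one. The members not called at 72 h without the 4 arrays were Oas1a, Oasl1, Mx2, Rsad2, Cxcl10 and Cmpk2.

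Ifit1 read 4.41, 4.21, 7.03 and 4.16 in control cells at 0 h, the third on the array with intestinal transcripts, and 6.98, 5.87, 6.78 and 6.38 at 72 h. It rose by 1.55 ± 0.38 with all arrays (adjusted p = 0.0017) and by 2.24 ± 0.21 without the 4 (4.73-fold, adjusted p = 1.3e-09). On the other 0 h arrays Ifit1 lay close to or below the limit of the filter, so the size of its rise is uncertain. Ifit3 read 5.50, 5.76, 6.27 and 5.74 at 0 h and 7.80, 7.01, 7.35 and 7.61 at 72 h, a rise of 1.63 ± 0.15 (3.09-fold, adjusted p = 5.4e-10). At 72 h every Ifit3 reading was above every reading at 0 h, whereas those of Ifit1 overlapped only through the array with intestinal transcripts.

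Usp18 read 4.05, 4.41, 6.31 and 4.52 at 0 h and 6.60, 6.06, 6.52 and 6.09 at 72 h of control culture, a rise of 1.50 ± 0.28 (adjusted p = 8.7e-05), or 1.99 ± 0.18 without the 4 arrays. MMS-treated cells at 24 h (6.00 to 6.42) and at 72 h (6.40 to 6.61) read close to the 72 h control. Igtp read 7.90, 7.23, 7.19 and 7.44 in the 72 h control, 1.43 ± 0.15 above 0 h without the 4 arrays (adjusted p = 7.1e-09). With all arrays Igtp differed by 0.50 ± 0.45 (adjusted p = 0.41).

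Both transcription factors of the ISRE complex rose. Irf9 rose by 1.08 ± 0.13 (2.12-fold, adjusted p = 9.4e-08) and Stat2 by 0.92 ± 0.17 (adjusted p = 8.1e-05), from 5.43, 5.64, 6.52 and 6.09 at 0 h to 6.69, 7.09, 6.84 and 6.72 at 72 h. Bst2 rose by 1.12 ± 0.18, Gbp3 by 1.00 ± 0.15, Xaf1 by 0.91 ± 0.13, Tap1 by 0.75 ± 0.18, Ddx58 by 0.69 ± 0.081 and Eif2ak2 by 0.66 ± 0.14. Smaller rises were those of Gbp2 (0.54), Ifit2 (0.36) and Irgm1 (0.33). Macrophage (4.36 to 4.44) and intestine markers (4.18 to 4.31) were low on the 72 h control arrays, while the fibroblast markers were at their highest (11.92 to 12.02 against 11.29 to 11.45 at 0 h). The part of the last in the rise was not tested.

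**Figure D3:**
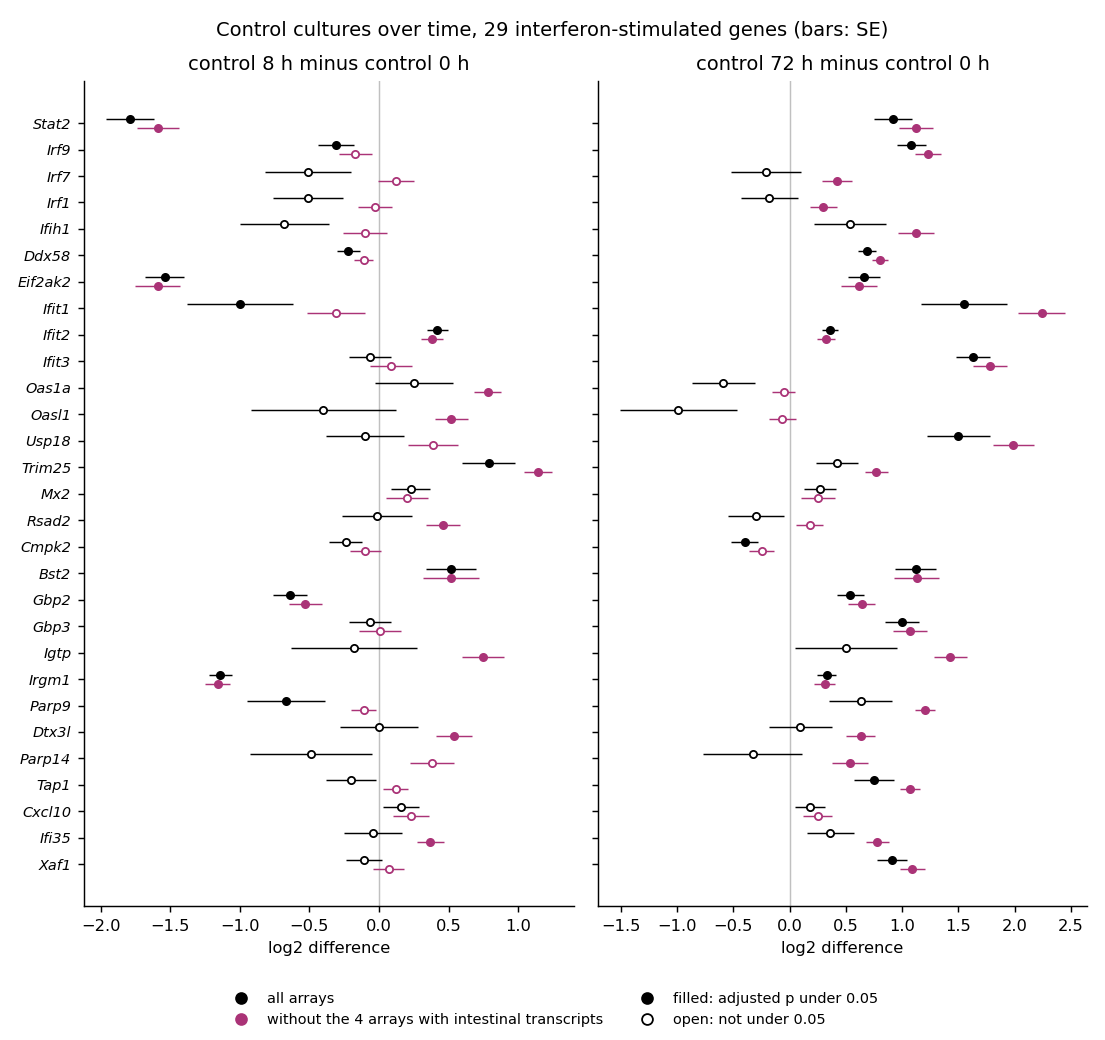
Log2 difference of control cells at 8 h and at 72 h from control cells at 0 h for the 29 genes, with all arrays (black) and without the 4 arrays with intestinal transcripts (purple). Bars are standard errors and filled points have an adjusted p under 0.05; at 72 h the purple points of 23 genes are filled and lie to the right of 0, led by Ifit1 at 2.24.

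At earlier times fewer members were called in the control cells, in both directions. At 1 h 1 of 29 rose and 3 fell (7.22% and 4.38%), and 2 rose and 2 fell without the 4 arrays (6.36% and 4.96%). Irf1, a transcription factor of the gamma response, read 7.69, 7.81, 9.67 and 7.74 at 0 h and 7.07, 6.91, 6.92 and 6.41 at 1 h, a difference of -1.40 ± 0.25 (adjusted p = 0.00018) and of -0.92 ± 0.12 without the 4 arrays. Stat2 fell by 0.94 on the log2 scale with all arrays (adjusted p = 0.00029) and by 0.74 without the 4 (adjusted p = 0.0016). At 24 h 1 rose and 1 fell (9.12% and 2.06%), and 0 rose and 0 fell without the 4 arrays (7.77% and 2.56%).

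At 8 h 3 rose and 8 fell against 0 h (35.8% and 23.6%), and 9 rose and 4 fell without the 4 arrays (34.4% and 24%). The genes lower in both were Stat2, Eif2ak2, Irgm1 and Gbp2. Stat2 read 4.24, 4.12, 3.92 and 4.22, a difference of -1.79 ± 0.17 (adjusted p = 3.4e-10). All these Stat2 values lay below the limit of the filter, so the size of its fall is uncertain. Eif2ak2 read 5.25, 5.78, 5.54 and 4.91 against 7.03, 6.91, 6.79 and 6.93 at 0 h (-1.54 ± 0.14, adjusted p = 1.5e-10). Irgm1 read 7.71, 7.33, 7.55 and 7.72 against 8.73, 8.73, 8.65 and 8.76 (-1.14 ± 0.084, adjusted p = 1e-12). MMS-treated cells at 8 h read in the same range or close to it for these genes (3.77 to 4.37 for Stat2, 5.17 to 5.93 for Eif2ak2, 7.46 to 7.86 for Irgm1). At 24 h the control cells read 5.31 to 5.76, 7.04 to 7.41 and 8.99 to 9.03 for these genes. The mean of the macrophage markers was at least 7.06 on every 8 h array and at most 5.63 on the others, and the part of these transcripts was not tested.

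**Figure D4:**
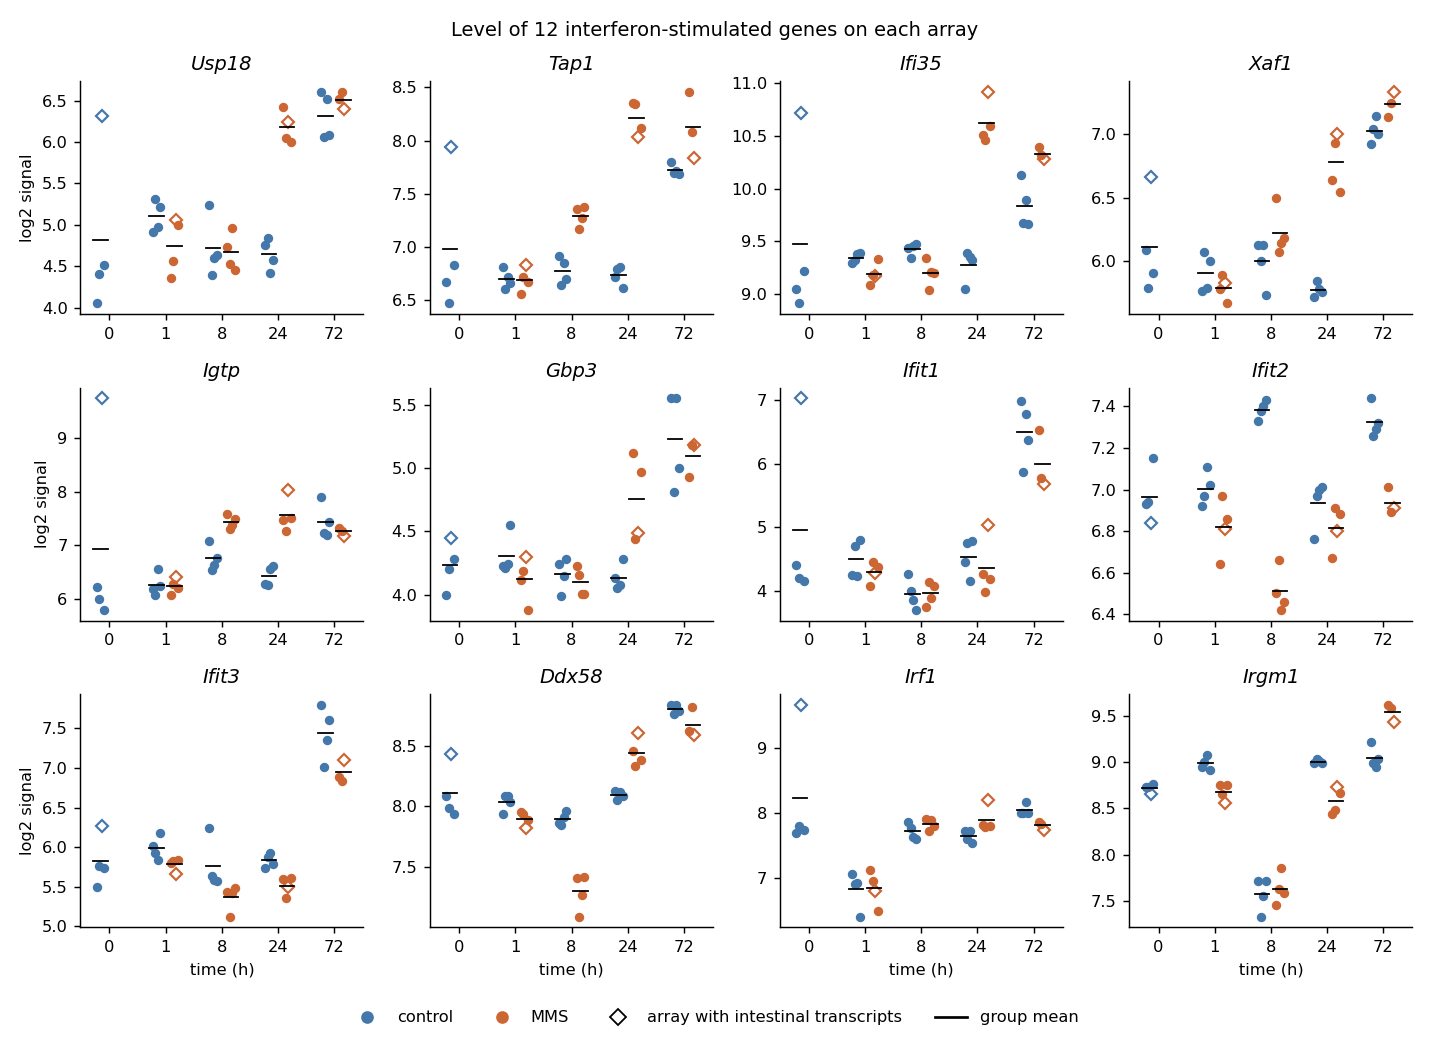
Log2 signal of 12 interferon-stimulated genes on each array against time in h (categories, not to scale), control in blue and MMS in orange, with diamonds for the 4 arrays with intestinal transcripts and lines for group means. Usp18, Tap1, Ifi35 and Xaf1 part from the control at 24 h, Ifit2 and Ddx58 are lower with MMS at 8 h, and the group means of Ifit1 and Ifit3 are highest in control cells at 72 h.

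The other genes of the pathway were described from lists taken with earlier results known, so their counts describe and do not test. They are to be read against the shares of all genes called higher and lower, which were 28.7% and 25% at 8 h, 25% and 19.4% at 24 h and 10.1% and 10.4% at 72 h of MMS. Of 19 interferon ligand genes 10 had a probe set and 3 passed the filter, and Ifnb1 and Ifng were below it in every group. Of the 3, Ifnz was called at 24 h of MMS (0.34 ± 0.14, adjusted p = 0.043). Of 10 receptor and JAK-STAT genes tested, 2 rose and 5 fell at 8 h and 2 rose and 2 fell at 24 h, the same numbers as among the 9 tested without the 4 arrays. Ifnar1, a chain of the type I receptor, rose by 0.59 ± 0.072 at 8 h (adjusted p = 3.1e-08) and 0.24 ± 0.072 at 24 h (adjusted p = 0.0063). Jak2, a kinase of the gamma receptor, had a log2 difference of -0.89 at 8 h (adjusted p = 0.00013) and Ifngr2, a chain of that receptor, one of -0.63 (adjusted p = 8.3e-05). Tyk2 fell by 0.40 on that scale at 8 h (adjusted p = 9.5e-05) and rose by 0.40 at 24 h (adjusted p = 0.00011).

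Genes of MHC class I presentation other than Tap1 rose at 24 h in 7 of 11 cases and fell in 0, against 25% and 19.4% of all genes (7 and 1 of 11 without the 4 arrays), with a median of 0.65 (0.40 without the 4 arrays). The class I heavy chains H2-D1 and H2-K1 rose by 1.43 ± 0.33 and 1.39 ± 0.31 (adjusted p = 0.00056 and 0.00048), or by 1.21 ± 0.07 and 1.18 ± 0.06 without the 4 arrays. Nlrc5, the transactivator of class I genes, rose by 1.30 ± 0.12 (adjusted p = 3.7e-10). It read 3.44 to 3.65 in control and 4.61 to 5.03 in MMS-treated cells. All these control values of Nlrc5 lay below the limit of the filter and only the MMS values above it, so the size of its rise is uncertain. Psme1, a subunit of the proteasome activator PA28, rose by 0.72 ± 0.13 (adjusted p = 1.9e-05). At 8 h 1 of the 11 rose and 0 fell (4 and 1 without the 4 arrays), and at 72 h 1 was called, Nlrc5 (0.63, adjusted p = 0.00071).

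Of 45 further interferon-stimulated genes tested, 14 rose and 5 fell at 8 h of MMS (15 and 13 of 44 without the 4 arrays), 13 rose and 4 fell at 24 h (15 and 6 of 44) and 2 rose and 3 fell at 72 h (2 and 4 of 44). The share that rose was near that of all genes at 8 and 24 h. In the same list 21 rose and 1 fell in control cells between 0 and 72 h (27 and 1 of 44 without the 4 arrays), against 21.8% and 16.3% of all genes. At 24 h Pml, the scaffold of nuclear bodies and also a p53 target, rose by 1.42 ± 0.080 (adjusted p = 4.9e-15), Trim34a by 1.03 (adjusted p = 3.6e-05) and Zc3hav1, an antiviral zinc finger protein that binds RNA, by 1.01 (adjusted p = 1.2e-08). Of 11 negative regulators 5 rose and 3 fell at 8 h, among them Adar, which edits double-stranded RNA, with a rise of 1.03 (adjusted p = 1e-12), and 0 rose and 2 fell at 24 h (6 and 3, then 0 and 1, without the 4 arrays). Of 15 sensors and adaptors of the nucleic acid response 4 rose and 3 fell at 8 h and 4 rose and 2 fell at 24 h, with the same numbers without the 4 arrays. Of 18 inflammatory targets of NF-kB 5 rose and 5 fell at 8 h (6 and 5 without the 4 arrays), 7 rose and 2 fell at 24 h and 8 rose and 1 fell at 72 h, the last 2 times with the same numbers without them. Icam1, an adhesion molecule, rose by 2.00 ± 0.095 (adjusted p = 9.1e-17) while Vcam1, a second one, fell by 1.37 on the log2 scale (adjusted p = 1.4e-13). Fibroblast markers were lower with MMS at 8 h (10.57 to 10.66 against 11.36 to 11.39 in control cells), 24 h (10.29 to 10.57 against 11.27 to 11.37) and 72 h (11.46 to 11.62 against 11.92 to 12.02). The mean of the macrophage markers was higher at 24 h (4.62 to 5.08 against 4.35 to 4.41), but most of these markers were not called. Of 18 tested 3 rose and 0 fell, with a median of -0.04, and without the 4 arrays 3 rose and 4 fell, with a median of -0.09. The part of fibroblast and macrophage transcripts in the differences was not tested.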

How the data were processed

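The series matrix holds log2 expression values of 45101 Affymetrix probe sets on 35 arrays, which the authors summarised and normalized by RMA before deposit (array medians 4.98 to 5.09, version not given in the sources used here). All 35 columns were matched to samples by their labels. Symbols came from the platform annotation: 34958 probe sets had 1 symbol, 932 several and 9211 none. Each gene was represented by its own-symbol probe set with the highest mean, and 14135 genes with a group mean of at least 4.40 (the 40th percentile) in 1 or more groups were tested, 4059 not. A linear model with 9 groups (26 residual degrees of freedom) was fitted with limma 3.58.1 in R 4.3.3, with empirical Bayes moderation and Benjamini-Hochberg adjustment within each contrast. Comparisons were MMS against control at each time, control cells against 0 h, and the differences of the MMS effect between neighbouring times; those that share control arrays are not independent of each other. Values of every array are given for the members the results turn on and ranges or differences for the others. Members and lists were chosen with earlier results of these data known. The script was tested on simulated data. Arrays give no read depth, so their number (3 or 4 a group) limits the precision. Alternatives covered normalization, filter, probe set choice, array weights, groups in the model, replicate block and arrays left out. Promoters came from RefSeq.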

Additional observations from a re-analysis of the deposited data

Results flagged for a closer look

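Single arrays lay far from the rest of their group of 4 in 23 of 232 combinations of gene and group, where chance gives about 1 in 20, and 12 of the 23 were the high reading of control 0 h replicate 3. On the log2 scale these were Irf7 at 7.10, Irf1 at 9.67, Ifih1 at 8.57, Ifit1 at 7.03, Oas1a at 8.32, Oasl1 at 8.24, Trim25 at 9.58, Rsad2 at 6.97, Igtp at 9.75, Parp9 at 8.93, Dtx3l at 8.53 and Parp14 at 7.69. On MMS 24 h replicate 3, which also held intestinal transcripts, Irf1 read 8.20, Oasl1 6.66 and Parp14 5.56, each above the other 3 arrays. The remaining high readings were Irf9 at 7.85 (control 72 h replicate 1), Irf1 at 8.18 (control 72 h replicate 3), Ifih1 at 6.94 (MMS 1 h replicate 4), Ifit3 at 6.24 (control 8 h replicate 1), Bst2 at 8.31 (MMS 8 h replicate 1) and Gbp3 at 4.55 (control 1 h replicate 4). Low readings were Ifit3 at 5.12 (MMS 8 h replicate 2) and Bst2 at 6.88 (control 8 h replicate 4).

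The effect of MMS differed between times for several genes by limma's test of the difference itself. The comparisons with 8 h include arrays with macrophage transcripts, whose part was not tested. At 8 h against 1 h the difference of the log2 effect was -0.45 for Ddx58, -0.69 for Ifit2 and 0.36 for Irgm1. At 24 h against 8 h it was 0.94 for Ddx58, 0.75 for Ifit2, 1.58 for Usp18, 0.68 for Gbp3, -0.48 for Irgm1, 0.96 for Tap1, 1.57 for Ifi35 and 0.78 for Xaf1. At 72 h against 24 h it was -0.47 for Ddx58, -1.34 for Usp18, -1.07 for Bst2, -0.75 for Gbp3, 0.92 for Irgm1, -1.07 for Tap1, -0.85 for Ifi35 and -0.79 for Xaf1.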

How the results depend on the processing

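Of 6368 gene values under alternatives 6036 kept their side of the threshold, 118 lost a call and 187 gained one. The other 27 turned direction with a call in either fit, all 27 in comparisons with control 0 h. Turns of direction between fits that both made no call were counted among the 6036. Of 446 counts 362 stayed within 1.5 times. Control 0 h replicate 3 moved most: without it control 72 h against 0 h had 22 higher and control 8 h 8 higher and 4 lower. Its omission, chosen after seeing the data, gave 4 higher and 5 lower at MMS 8 h, 2 lower at 24 h, 3 higher and 5 lower at 72 h, and in the MMS effect 4 higher (8 h against 1 h), 12 higher (24 h against 8 h) and 12 lower (72 h against 24 h). Without the 4 arrays with intestinal transcripts the counts were 5 and 5 at MMS 8 h, 3 higher at 72 h, 2 higher for control 1 h, 9 higher and 4 lower for control 8 h, 0 and 0 for control 24 h, 23 and 0 for control 72 h, and 6 higher (8 h against 1 h) and 2 lower (24 h against 8 h) for the effect. With array weights they were 1 lower at MMS 1 h, 6 higher at 8 h, 2 lower at 24 h, 3 higher and 7 lower at 72 h, 6, 9, 4 and 23 higher for control 1, 8, 24 and 72 h, 3 lower for control 24 h, and 6 higher (8 h against 1 h) and 13 lower (72 h against 24 h) for the effect. With only the contrast's groups they were 5 higher at MMS 8 h, 3 lower at 24 h, 2 higher at 72 h and 1 lower for control 1 h. They were 1 higher and 4 lower for control 8 h and 0 lower for control 24 and 72 h. For the effect they were 5 higher (8 h against 1 h) and 11 lower (72 h against 24 h). Quantile normalization gave 4 higher at MMS 8 h, 0 higher for control 1 h and 0 lower for control 24 h. For the effect it gave 4 higher (8 h against 1 h) and 3 lower (24 h against 8 h). Centring gave 4 lower at MMS 24 h, and for the effect 2 higher (8 h against 1 h), 4 lower (24 h against 8 h) and 2 higher (72 h against 24 h). Without the 8 h arrays 1 was lower at MMS 1 h and 0 for control 24 h. No filter gave 0 lower for control 24 h, the 60th percentile 0 for control 24 and 72 h, and the mean of all probe sets 0 for control 72 h and 1 for the effect at 8 h against 1 h. The cause was not tested.

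Leaving out 1 array at a time gave 0 to 0 higher and lower at MMS 1 h, 2 to 3 higher and 2 to 3 lower at 8 h, 7 to 8 higher and 1 to 2 lower at 24 h, and 1 to 1 higher and 2 to 3 lower at 72 h. For control cells it gave 0 to 1 higher and 2 to 3 lower at 1 h, 2 to 8 and 4 to 11 at 8 h, 0 to 1 and 0 to 4 at 24 h, and 14 to 22 and 0 to 3 at 72 h. For the effect it gave 1 to 2 higher and 2 to 2 lower (8 h against 1 h), 7 to 8 and 1 to 1 (24 h against 8 h), and 1 to 1 and 6 to 8 (72 h against 24 h).

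Values that turned positive, with a call in either fit, were, for control 1 h, Ifih1 (0.53 with array weights, 0.48 without the 4 arrays) and Ifi35 (0.28 with weights). For control 8 h they were Oasl1 (0.52 without the 4 arrays), Usp18 (0.52 with weights), Rsad2 (0.31 with weights, 0.46 without the 4 arrays or control 0 h replicate 3), Igtp (0.53, 0.75), Dtx3l (0.55, 0.54) and Ifi35 (0.37, 0.37). For control 24 h they were Ifih1 (0.60), Usp18 (0.48) and Ifi35 (0.25), all with weights. For control 72 h they were Irf7 (0.48 with weights, 0.42 without), Irf1 (0.33, 0.30) and Parp14 (0.54 without the arrays). Leaving out 1 array of either group gave -0.24 to 0.46 for Rsad2, -0.57 to 0.75 for Igtp, -0.22 to 0.54 for Dtx3l and -0.23 to 0.37 for Ifi35 at control 8 h, and -0.47 to 0.42 for Irf7 and -0.71 to 0.54 for Parp14 at control 72 h.

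Whether the replicate numbers pair the arrays was not settled. Same-number deviations correlated at -0.26 to 0.31 over 15 pairs, 7 over 0.1. Of 15 MMS arrays 8 correlated best with the control of their own number, above the average of random matches to the controls. All 4 arrays with intestinal transcripts carry the number 3. With the replicate number as a block 22 of 22 counts stayed within 1.5 times and 318 of 319 gene values kept their call, the exception being Bst2 at MMS 24 h (adjusted p = 0.056).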
